A study of Fragaria vesca with 18 samples.

Results

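The comparison of fruit with brown achenes against fruit with yellow achenes was examined in 6 of the 18 libraries of the series, 3 per stage, all made from RNA depleted of ribosomal RNA. Its members were every row of the deposited count table in these libraries, 61763 rows in all, sorted into 5 classes by the prefix of the row name. There were 28588 annotated genes, 19247 intergenic lncRNAs (prefix LINC), 12662 lncRNAs antisense to exons (exonAS), 821 antisense to introns (intronAS) and 445 lying in introns on the sense strand (INTRONIC), with the prefixes read here in this way. LncRNAs are long transcripts with no annotated protein product.

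The plants were Fragaria vesca, the woodland strawberry, of the line Hawaii4, grown in a greenhouse, and RNA was taken from frozen fruit with TRIzol; no treatment is named. Both groups were mature fruit, and they differed in the colour of the achenes, the small dry fruits that carry the seeds on the strawberry's surface. Immature fruit with green achenes supplied 3 further rRNA-depleted libraries, which are used here to estimate the spread and to place levels. Each library combined fruit of at least 5 plants, so differences between single plants are averaged within a library. The libraries measure whole fruit tissue, in which fewer cells of a type and less RNA per cell cannot be told apart. The files pair no gene ID with a name, so the labelled tissue could not be checked against marker genes, and genes are given by ID without a role.

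The strawberry is a non-climacteric fruit: its fleshy part is the swollen receptacle, and ripening is known to depend on a fall in auxin supplied by the achenes and a rise in abscisic acid. During ripening the receptacle softens, gains sugars and aroma compounds and, in red-fruited lines, anthocyanins, while photosynthetic and growth-related transcripts decline; Hawaii4 is a line whose ripe receptacle stays pale. Antisense and intergenic lncRNAs can act on neighbouring genes in other plants, but many have no known role. RNA depleted only of rRNA keeps transcripts with and without a poly(A) tail, so mature mRNA and untailed RNA are counted together.

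The 3 yellow libraries differed from each other about as much as they differed from the brown ones. Across the 49283 rows tested, the median absolute difference between 2 libraries was 0.81 on the log2 CPM scale for yellow 1 and 2, 0.57 for yellow 1 and 3 and 0.92 for yellow 2 and 3. CPM are counts scaled to a common library size with TMM factors, which set libraries to one level from the bulk of rows. The 9 pairs of a yellow with a brown library ranged from 0.55 to 1.44, with a median of 0.71. The lowest of these pairs, yellow 3 with brown 2, lay below every pair of yellow libraries. The 3 pairs of green libraries lay at 0.26 to 0.34. In edgeR's terms, the biological coefficient of variation was 25.9% within green, 60.1% within yellow and 56.7% within brown fruit, so both mature stages were more variable than the immature one.

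**Figure D1:**
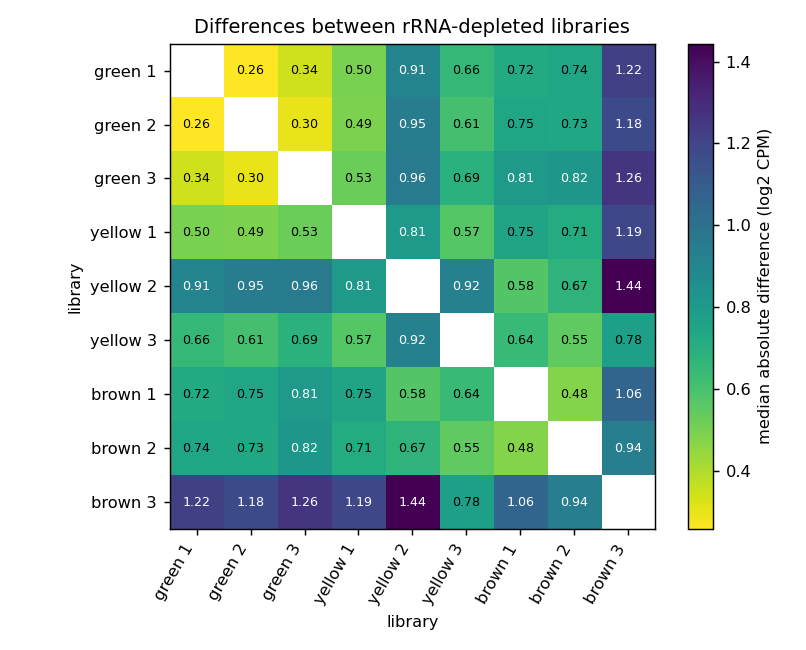
Median absolute difference in log2 CPM, over 49283 rows, for every pair of the 9 rRNA-depleted libraries; rows and columns are libraries, and colour and number give the difference. The green libraries form a block at 0.26 to 0.34, while yellow 2 and brown 3 stand far from others of their own stage and farthest from each other (1.44).

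A pair of libraries stood apart within its own stage. Yellow library 2 was the farthest from the median of the yellow libraries in 50.5% of rows, and brown library 3 the farthest from the brown median in 57.8%. Library totals were 66.0, 75.2 and 66.4 M counts for yellow 1, 2 and 3, and 72.3, 64.7 and 47.2 M for brown 1, 2 and 3, so brown 3 was also the shallowest. Intergenic rows took 1.78, 1.49 and 2.67% of the counts of the yellow libraries and 2.09, 2.40 and 5.02% of those of the brown. Brown 3 was thus the highest and yellow 2 the lowest in intergenic RNA. The part of depth in these differences was not tested. Class medians, fold sizes and counts of calls are given with and without these libraries.

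Annotated genes as a class had a median near 0, while intergenic lncRNAs were shifted towards brown fruit. The median log2 fold change of brown over yellow was -0.03 for the 25577 genes tested, with the middle 50% of genes between -0.50 and 0.53. It was 0.58 for the 10446 intergenic rows tested, with the middle 50% between 0.02 and 0.94. Exonic antisense rows, 12386 tested, had a median of -0.11, intronic antisense rows, 649 tested, one of 0.07, and intronic sense rows, 225 tested, one of 0.41. Over all rows tested the median was 0.05. With library size alone as the scaling this overall median was 0.23, and the signs of the gene and exonic antisense medians turned, to 0.15 and 0.046. Relative to the median of all rows, intergenic rows lay 0.53 higher with TMM and 0.57 higher with library size only, and exonic antisense rows lay at -0.16 and -0.18.

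The class medians varied with level. Genes whose higher stage mean was 1 to 10 CPM had a median of 0.33, those at 10 to 100 CPM one of -0.19, those under 1 CPM one of -0.20, and those at 100 CPM or more one of -0.10. Intergenic rows had 0.16 under 1 CPM, 0.77 at 1 to 10 CPM, 0.69 at 10 to 100 CPM and 0.13 for the 18 rows at 100 CPM or more. The exonic antisense median was -0.044 without yellow 2 and -0.034 without brown 3.

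The intergenic shift was largest in brown library 3. Set against the mean of the 3 yellow libraries, the median intergenic row differed by 0.15 in brown 1, 0.33 in brown 2 and 1.32 in brown 3 (log2). The same rows in brown 3 were at least 2-fold higher in 63.6% of cases, against 12.7% in brown 1 and 19.4% in brown 2. Without brown 3 the class median was 0.12, and without both brown 3 and yellow 2 it was -0.13. Yellow 3 lay on the other side of the brown mean from its stage partners, with a median brown minus yellow difference of -0.09 for intergenic rows, against 0.58 for yellow 1 and 0.97 for yellow 2.

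**Figure D2:**
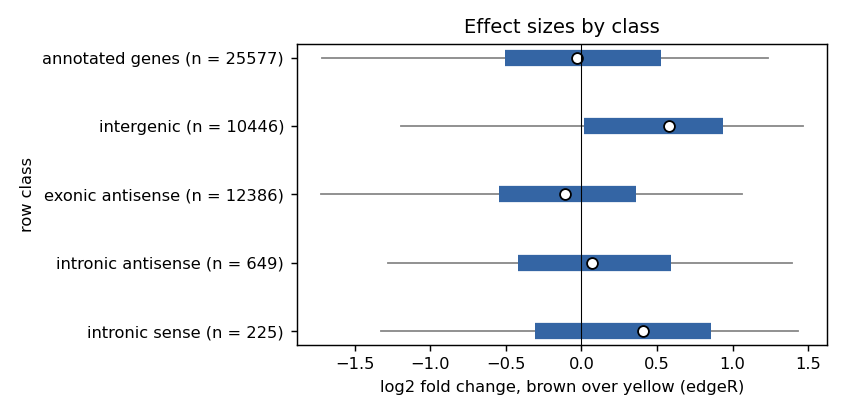
Log2 fold change of brown over yellow fruit by row class in the edgeR fit; circles are medians, thick bars the middle 50% of rows and thin lines the range from the 5th to the 95th percentile. The intergenic median lies at 0.58 and that of annotated genes at -0.03.

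Large fold changes were common in every class, and few were precise. A log2 fold change of at least 1 (2-fold) was estimated for 2629 genes (10.3%) and one of -1 or less for 3239 (12.7%), against 11.5% and 11.4% of all rows tested. Among intergenic rows 2159 (20.7%) and 683 (6.54%) passed these sizes, and among exonic antisense rows 775 (6.26%) and 1602 (12.9%). Without brown 3, 1009 genes (3.90%) and 979 intergenic rows (8.97%) passed the upper size, and 3732 (14.4%) and 1486 (13.6%) the lower one, against 4.91% and 14.0% of all rows. Without yellow 2 the shares were 10.4% and 16.2% of genes and 16.8% and 10.1% of intergenic rows, against 10.9% and 15.0% of all rows. Without yellow 2 and brown 3 together, 7.44% and 19.9% of intergenic rows passed the upper and lower size, against 6.99% and 19.9% of all rows. The median standard error of a log2 fold change was 0.49 for genes, 0.70 for intergenic and 0.48 for exonic antisense rows. The SD of log2 CPM among the 3 yellow libraries had a median of 0.62 for genes, 0.75 for intergenic and 0.58 for exonic antisense rows, and it exceeded the size of the row's own fold change in 57.7%, 54.0% and 59.3% of them. The brown libraries had median SDs of 0.65, 0.84 and 0.65, and the green ones 0.23, 0.43 and 0.23.

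For part of the genes the fit nonetheless bounded the change. The 95% interval of the log2 fold change lay wholly between -1 and 1, leaving out any 2-fold difference, for 3574 genes (14.0%), 1821 exonic antisense rows (14.7%), 103 intergenic rows (0.986%), 16 intronic antisense and 3 intronic sense rows, against 11.2% of all rows. These intervals use the quasi-likelihood F statistic, with a single spread per row estimated over green, yellow and brown libraries together. The biological coefficient of variation was 25.9% within green, 60.1% within yellow and 56.7% within brown fruit. The intervals may therefore be too narrow for brown against yellow. The share depended on level. Among genes whose higher stage mean was 10 to 100 CPM it was 30.6% of 7659, and it was 9.20% of the 11371 genes at 1 to 10 CPM and 11.1% of the 1642 at 100 CPM or more. Genes of that highest level had a median yellow SD of 0.64, above the 0.47 of genes at 10 to 100 CPM, while in green fruit both had a median SD of 0.12 to 0.13.

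No row passed an adjusted p of 0.05 in the edgeR quasi-likelihood test over the 9 rRNA-depleted libraries, that is 0% of 49283 rows, and the lowest adjusted p was 0.111. At an unadjusted p under 0.05 there were 1381 genes higher and 2428 lower in brown fruit, 907 and 131 intergenic rows, 395 and 1195 exonic antisense rows, 28 and 13 intronic antisense rows and 15 and 5 intronic sense rows. Over all rows tested these shares were 5.53% higher and 7.65% lower. The spread in this fit includes the less variable green libraries. A fit to the yellow and brown libraries alone had 3493 of 47238 rows at an unadjusted p under 0.05, against 6498 of 49283 here. All 3 brown libraries lay above all 3 yellow ones for 1383 genes (5.41%), 905 intergenic rows (8.66%) and 497 exonic antisense rows (4.01%), against 5.77% of all rows. They lay below for 2039 genes (7.97%), 237 intergenic rows (2.27%) and 1048 exonic antisense rows (8.46%), against 6.83% of all rows. The gene shares were near these backgrounds. Intergenic rows leaned to higher in brown with all libraries. Without yellow 2 and brown 3 they did not: 14.4% lay above and 21.2% below, against 23.1% and 25.5% of all rows. With all libraries, exonic antisense rows were less often above than all rows, while their share below, 8.46%, was close to the 7.97% of genes. Brown 3, with its 5.02% of intergenic counts, differed from the yellow mean by medians of 1.32 in intergenic and -0.37 in exonic antisense rows.

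Other fits did call rows. DESeq2 called 1311 rows (2.66%): 32 genes higher and 859 lower, 6 and 15 intergenic rows, and 9 and 387 exonic antisense rows. Of these calls, 1264 were lower in brown fruit. Here and below, exonic antisense calls may in part repeat gene calls, since the strand setting of the counting is not given. limma-voom called 0 rows with equal weights, with 5933 at an unadjusted p under 0.05. When limma-voom weighted each library by its fit, the weights were 0.85, 0.23 and 0.88 for yellow 1, 2 and 3 and 0.85, 2.06 and 0.19 for brown 1, 2 and 3. It then called 1435 rows (2.91%), with 452 genes higher and 565 lower. Of the DESeq2 calls, 627 were also called with these weights, which is 47.8% of the DESeq2 calls and 43.7% of the weighted ones.

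Without yellow library 2, edgeR called 2273 rows (4.49%): 292 genes higher and 1273 lower, 19 and 27 intergenic, 119 and 535 exonic antisense, 1 and 5 intronic antisense, and 1 and 1 intronic sense rows. Of the DESeq2 calls on all libraries, 1083 (82.6%) were among them, and they made up 47.6% of this set. Leaving out any other yellow or brown library left 0 calls. Without yellow 2 and brown 3 together there were 5154 calls (10.3%), with 2024 higher and 3130 lower in brown. These libraries were left out because they stood apart, so the last count describes the other 4 libraries and the spread they share with the green ones.

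**Figure D3:**
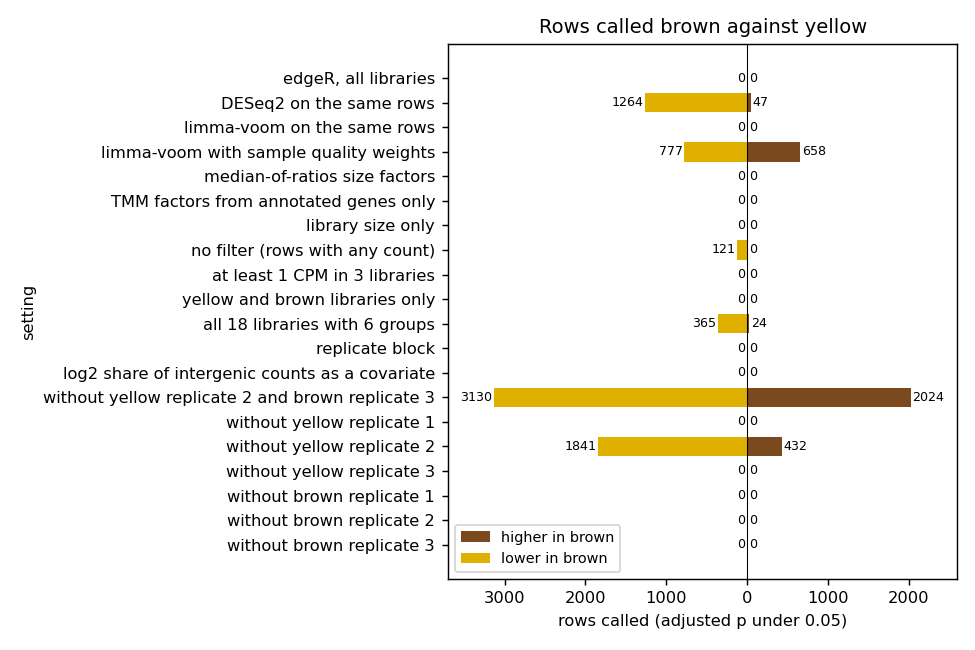
Rows with an adjusted p under 0.05 for brown against yellow fruit under each setting; bars to the right count rows higher in brown, bars to the left rows lower in brown, and numbers give the counts. Most settings call 0 rows. Settings without yellow library 2 or with library weights call 1435 to 5154. With all libraries and no weights, DESeq2 calls 1311, a fit to all 18 libraries 389 and a fit with no low-count filter 121.

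Lists taken from other libraries set the level of each yellow library beside those of green and brown fruit. Whether the spread among yellow libraries follows ripening was not tested. The lists held rows called in the poly(A)-depleted libraries of the same series between brown and green fruit (edgeR adjusted p under 0.05, log2 fold change of at least 2 either way), so no rRNA-depleted count chose them. The labels do not say whether the 2 kinds of library share fruit or RNA. For the 747 genes lower in brown than green there, the mean log2 CPM in rRNA-depleted libraries was 5.51, 5.66 and 5.78 in green 1, 2 and 3. It was 3.59, 1.41 and 2.39 in yellow 1, 2 and 3, and 1.32, 1.43 and 1.30 in brown 1, 2 and 3. The brown libraries were close together, yellow 2 lay among them, and yellow 1 and 3 lay between green and brown.

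Of these 747 genes, 210 (28.1%) had all 3 brown libraries below all yellow ones, against the 6.83% of all rows, and 4 had them above. Their median log2 fold change was -1.32, and 682 of them had a negative one, but 0 passed the edgeR threshold; 455 had an unadjusted p under 0.05 and were lower, against 7.65% of all rows. Without yellow 2 the median was -1.68 and 385 were called lower and 1 higher, where 3.64% of all rows were called lower and 0.854% higher. Yellow 2 was the yellow library nearest to brown on this list, so leaving it out had to widen the difference. Without brown 3 it was -1.32, with 0 called. The 321 exonic antisense rows on the list had 92 (28.7%) below and 2 above, with a median of -1.36. Their reads cannot be told apart from those of genes they overlap, so they are not an independent set. The 11 intergenic rows had 3 below and 0 above, with a median of -1.02.

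Rows higher in brown than green were less separated. The 102 genes of that list had a mean log2 CPM of 1.02 to 1.37 in green, of 3.55, 7.61 and 5.64 in yellow 1, 2 and 3, and of 7.20, 7.08 and 5.86 in brown 1, 2 and 3. Yellow 2 was above every brown library, and brown 3 was near yellow 3. Their median log2 fold change was 0.26, with 3 (2.94%) above, 7 (6.86%) below and 0 called, against 5.77% above and 6.83% below over all rows. Without yellow 2 the median was 1.54, with 29 called higher and 0 lower, where 0.854% and 3.64% of all rows were called. Yellow 2 was the highest yellow library on this list, so leaving it out had to widen the difference. Without brown 3 the median was 0.60, with 0 called. The 15 intergenic rows measured of this list averaged 0.19, 5.21 and 2.54 in yellow 1, 2 and 3 and 5.08, 4.83 and 2.83 in brown. For the 39 exonic antisense rows, again not independent of genes, the means were 2.23, 7.25 and 4.69 in yellow and 7.03, 6.75 and 5.61 in brown.

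**Figure D4:**
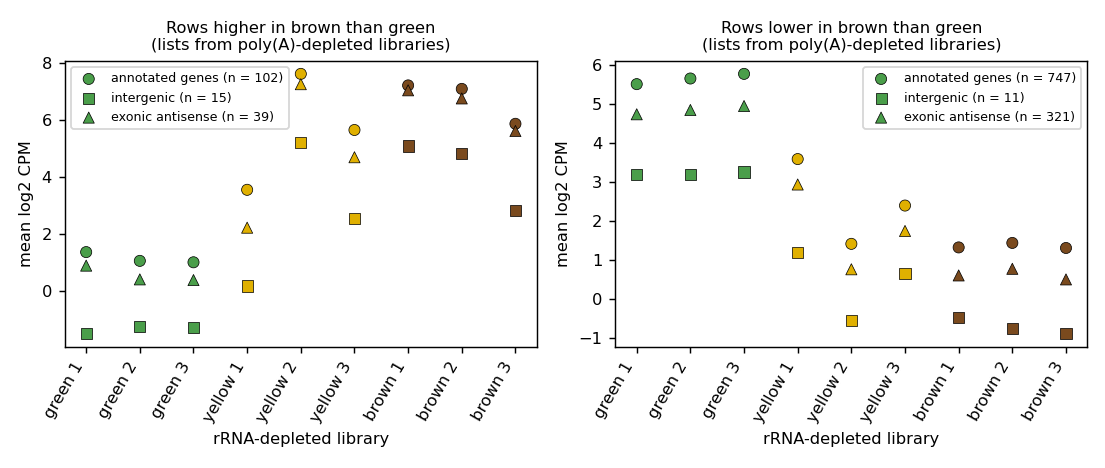
Mean log2 CPM per rRNA-depleted library over rows higher (left) or lower (right) in brown than green fruit in the poly(A)-depleted libraries; each point is 1 library and its colour the stage. In the right panel the 3 brown libraries lie together for genes (1.30 to 1.43), whereas the yellow ones run from 1.41 to 3.59.

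The rows described next were chosen as those with the smallest unadjusted p among rows whose stages do not overlap, or as those with the largest fold change, so their size is partly a product of the choice. Fold changes are given as log2 ± standard error, and every adjusted p is above 0.05. FvH4_4g13580 measured 3.75, 3.65 and 3.63 CPM in yellow 1, 2 and 3 and 7.95, 23.0 and 11.6 CPM in brown 1, 2 and 3. The yellow libraries were nearly equal, and the brown ones were all higher and farther apart. Its log2 fold change was 1.95 ± 0.40 (95% interval 1.09 to 2.81, edgeR adjusted p = 0.111), and green fruit lay at 3.03 to 4.16 CPM, so the level was alike in green and yellow. FvH4_5g20520, the gene with the largest positive fold change among those with a stage mean of at least 10 CPM, measured 5.74, 10.3 and 5.10 CPM in yellow and 25.9, 47.6 and 12.6 CPM in brown (2.03 ± 0.47, adjusted p = 0.116).

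FvH4_4g32770 was the gene with the smallest p among those lower in brown fruit. It measured 20.5, 1.36 and 11.0 CPM in yellow and 0.321, 0.505 and 0.225 CPM in brown, after 95.9 to 179 CPM in green (-4.96 ± 0.78, interval -6.62 to -3.31, edgeR adjusted p = 0.111). Yellow 2 was the yellow library nearest to brown. FvH4_3g11410 had the largest negative fold change at that level, -6.43 ± 1.19, yet its groups overlapped: it measured 119, 0.579 and 25.9 CPM in yellow 1, 2 and 3 and 0.711, 0.387 and 0.586 CPM in brown. In yellow 2 this gene was as low as in brown fruit, and in yellow 1 it was above the 36.2 to 38.2 CPM of green. Without yellow 1 its fold change was -4.56, and that of FvH4_4g32770 was -4.14.

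The 4 named intergenic rows higher in brown had green levels that overlapped with yellow. LINC.XLOC_004996 (chromosome 2, 19188497 to 19189649, plus strand, 1 exon) measured 0.730, 1.003 and 1.23 CPM in yellow and 3.16, 3.25 and 5.53 CPM in brown (2.01 ± 0.47, edgeR adjusted p = 0.116); green fruit had 0.748 to 1.30 CPM. It rests on 189 counts over the yellow and 748 over the brown libraries. LINC.XLOC_008131 (chromosome 3, 4762178 to 4764001, plus strand, 1 exon) measured 1.43, 1.23 and 1.73 CPM in yellow and 3.71, 3.21 and 8.02 CPM in brown, with 1.17 to 1.73 CPM in green. LINC.XLOC_010623 (chromosome 3, 633608 to 637616, minus strand, 1 exon) had 4.83, 8.98 and 10.02 CPM in yellow and 19.8, 14.9 and 27.0 CPM in brown, with 5.31 to 7.18 CPM in green. LINC.XLOC_017543 (chromosome 4, 20384432 to 20386610, minus strand, 1 exon) had 2.06, 3.41 and 3.87 CPM in yellow and 5.99, 6.80 and 13.2 CPM in brown, with 2.41 to 3.76 CPM in green. In all 4 rows brown 3 was the highest library, as it was for intergenic RNA as a whole, and the part of that library's shift in these values was not tested. Without any single yellow or brown library their fold changes stayed positive, but rows chosen for non-overlapping stages could hardly turn sign in this way. Without brown 3 the smallest of these fold changes, that of LINC.XLOC_017543, was 1.04.

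Of the intergenic rows lower in brown, some stepped down from green through yellow and others did not differ clearly between those stages. LINC.XLOC_023253 (chromosome 6, 861511 to 862497, plus strand, 1 exon) measured 5.98, 0.936 and 4.27 CPM in yellow and 0.541, 0.336 and 0.165 CPM in brown (-3.43 ± 0.60, edgeR adjusted p = 0.111), and 21.8 to 32.1 CPM in green. LINC.XLOC_028353 (chromosome 6, 26529458 to 26530282, minus strand, 1 exon) measured 2.71, 2.07 and 1.26 CPM in yellow and 0.541, 0.235 and 0.496 CPM in brown (-2.24 ± 0.52); its green level, 2.26 to 3.87 CPM, overlapped with yellow. LINC.XLOC_007930 (chromosome 3, 2397040 to 2399808, plus strand, 1 exon) had 337, 55.8 and 235 CPM in yellow and 46.8, 47.7 and 44.6 CPM in brown. It was the most abundant of the rows chosen by smallest p or largest fold change. The brown libraries of this row were close together, and the yellow ones ran on both sides of the 133.5 to 180.3 CPM of green, with the lowest, yellow 2, just above brown. LINC.XLOC_032869 (chromosome 7, 21665175 to 21666781, minus strand, 2 exons) had 47.4, 9.14 and 22.9 CPM in yellow and 7.95, 5.97 and 6.77 CPM in brown, after 67.4 to 82.3 CPM in green; its fold change of -1.94 was -1.22 without yellow 1.

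**Figure D5:**
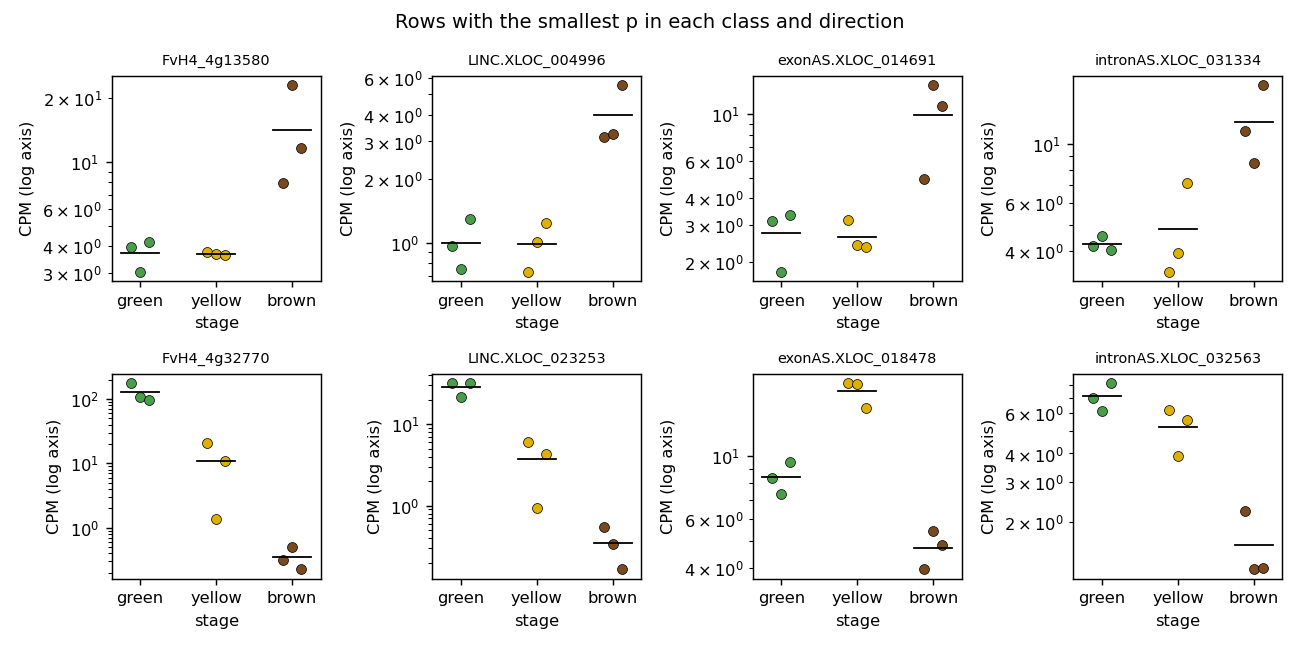
CPM (log axis) of the row with the smallest p in each of 4 classes, higher (top) and lower (bottom) in brown than yellow fruit; each point is 1 library and bars are means. Green and yellow lie together for FvH4_4g13580 and LINC.XLOC_004996, while FvH4_4g32770 and LINC.XLOC_023253 step down from green through yellow to brown.

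Of the named antisense rows lower in brown, exonAS.XLOC_018478 (chromosome 4, 31394935 to 31396120, minus strand, 1 exon) had the smallest p. It measured 18.2, 17.96 and 14.7 CPM in yellow and 3.96, 5.40 and 4.82 CPM in brown, and 7.35 to 9.50 CPM in green (-1.84 ± 0.32, interval -2.52 to -1.16, edgeR adjusted p = 0.111). Yellow was thus the highest of the 3 stages for this row, in every library, and leaving out single libraries kept the fold change between -1.95 and -1.73. exonAS.XLOC_009053 (chromosome 3, 17632735 to 17633558, plus strand) measured 8.31, 2.18 and 1.996 CPM in yellow and 0.338, 0.606 and 0.360 CPM in brown. exonAS.XLOC_019259 (chromosome 5, 8427661 to 8428938, plus strand) measured 19.8, 1.003 and 6.19 CPM in yellow and 0.508, 0.505 and 0.420 CPM in brown. Without yellow 1 the fold changes of these rows moved from -3.26 to -2.26 and from -4.23 to -2.92. exonAS.XLOC_024244 (chromosome 6, 13918544 to 13919889, plus strand) had the largest negative fold change of its class among rows with a stage mean of at least 2 CPM, -7.02 ± 1.31, from 14.1, 0.267 and 1.08 CPM in yellow to 7 counts over the 3 brown libraries. Yellow 1 was far above yellow 2 and 3, and without single libraries the value ran from -8.18 to -4.11.

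Antisense rows higher in brown were led by exonAS.XLOC_014691 (chromosome 4, 17155956 to 17157554, plus strand), with 3.14, 2.41 and 2.34 CPM in yellow and 4.92, 13.7 and 10.9 CPM in brown (1.91 ± 0.43, edgeR adjusted p = 0.112). Among genes numbered on chromosome 4, the one whose counts were nearest to this row over the 18 libraries was FvH4_4g13580, within a factor of 1.69. Both rows were higher in brown, which follows in part from the match on counts. The intergenic row LINC.XLOC_008131 came as near to a gene, within a factor of 1.44, so such nearness does not show a shared locus. No source used here gives the strand setting of the counting, so reads of an antisense row and of a gene that overlaps it cannot be told apart. exonAS.XLOC_027156 (chromosome 6, 10785382 to 10786814, minus strand) measured 5.68, 8.33 and 4.63 CPM in yellow and 14.7, 25.7 and 11.2 CPM in brown. exonAS.XLOC_027174 (chromosome 6, 11034250 to 11035042, minus strand) measured 20.2, 23.4 and 13.4 CPM in yellow and 61.7, 74.1 and 27.8 CPM in brown. exonAS.XLOC_030489 (chromosome 7, 15024875 to 15027673, plus strand), named for its size, overlapped between the groups, at 0.772, 0.290 and 0.817 CPM in yellow and 0.694, 2.56 and 4.31 CPM in brown, and its fold change of 1.99 was 1.36 without brown 3.

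Of the intronic rows, intronAS.XLOC_032563 (chromosome 7, 17800856 to 17801983, minus strand) measured 6.22, 3.90 and 5.60 CPM in yellow and 2.25, 1.24 and 1.26 CPM in brown (-1.72 ± 0.38, edgeR adjusted p = 0.111). Green fruit had 6.16 to 8.14 CPM, so the level of this row was lower mainly in brown. intronAS.XLOC_032814 (chromosome 7, 21114853 to 21116033, minus strand, 3 exons) measured 103, 49.6 and 72.1 CPM in yellow and 23.2, 32.8 and 9.48 CPM in brown, with 30.6 to 37.0 CPM in green. Its yellow libraries were all above green and brown. intronAS.XLOC_031334 (chromosome 7, 3209220 to 3214824, minus strand) had 3.34, 3.92 and 7.15 CPM in yellow and 11.1, 8.46 and 16.5 CPM in brown. intronAS.XLOC_001433 (chromosome 1, 18983016 to 18986976, plus strand) had 5.57, 7.44 and 9.68 CPM in yellow and 17.1, 10.2 and 23.7 CPM in brown. Both of these were highest in brown 3.

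INTRONIC.XLOC_030257 (chromosome 7, 12173127 to 12177275, plus strand) measured 2.83, 2.81 and 4.31 CPM in yellow and 5.48, 6.64 and 10.5 CPM in brown (1.18 ± 0.37, edgeR adjusted p = 0.218). INTRONIC.XLOC_021245 (chromosome 5, 4682954 to 4685260, minus strand) measured 1.52, 2.76 and 2.63 CPM in yellow and 3.38, 5.60 and 6.05 CPM in brown. Both were highest in brown 3. INTRONIC.XLOC_020593 (chromosome 5, 24836005 to 24837048, plus strand) measured 9.34, 7.26 and 9.05 CPM in yellow and 4.84, 2.79 and 2.85 CPM in brown, against 1.86 to 5.23 CPM in green. INTRONIC.XLOC_022264 (chromosome 5, 18399516 to 18400477, minus strand) was the second lower row of its class under the naming rule, and the difference was small: it measured 2.03, 2.27 and 2.32 CPM in yellow and 1.86, 1.75 and 1.71 CPM in brown (-0.32 ± 0.42, adjusted p = 0.783).

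No row of any class was at 0 in all yellow libraries with at least 10 counts in each brown one. The reverse held for 3 rows, chosen after their values were seen. LINC.XLOC_015033 (chromosome 4, 21262264 to 21262874, plus strand) had 13, 10 and 28 counts in yellow 1, 2 and 3 and 0 in each brown library. LINC.XLOC_026907 (chromosome 6, 7764776 to 7766112, minus strand) had 12, 14 and 20 counts and 0 in brown. exonAS.XLOC_025635 (chromosome 6, 30923833 to 30925152, plus strand) had 43, 11 and 12 counts and 0 in brown, and was not tested because it did not pass the low-count filter. Against a floor of 3 counts over the pooled brown libraries, which equals 0.0163 CPM of library totals, the yellow level was at least 15.1, 13.6 and 19.5-fold higher. Both intergenic rows were also at 0 counts in green 1, and had 16 and 27 counts in green 2. Such floors cover counting error only.

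The share of counts held by a class moved with a few very abundant rows. exonAS.XLOC_011569 (chromosome 3, 13172900 to 13178274, minus strand), singled out after its values were seen as the row with the most counts in the 6 libraries, took 5.23, 5.16 and 8.18% of the yellow and 1.96, 2.02 and 1.59% of the brown libraries. All brown libraries were below all yellow ones, with a log2 fold change of -1.86 ± 0.97 (interval -3.94 to 0.22, edgeR adjusted p = 0.421). The gene row FvH4_3g20030 held nearly the same counts, at 5.23, 5.16 and 8.18% of the yellow libraries. Reads of the gene and of the antisense row cannot be told apart. Where they are the same reads, the class shares count them under both classes. Exonic antisense rows as a class took 24.8 ± 1.09% of yellow and 22.2 ± 0.504% of brown counts (mean ± SD, n = 3), which is -2.62 points for brown minus yellow (two-sided exact permutation test, p = 0.1, the smallest that 3 against 3 can give; adjusted over 5 classes 0.5). Without the 10 most counted rows the difference was -0.30 points (exact p = 0.4). Annotated genes took 73.1 ± 1.49% and 74.5 ± 1.17%, a difference of 1.40 points that became -0.87 without those rows. These 10 rows took 11.0, 22.1 and 20.8% of the yellow libraries and 13.4, 12.5 and 9.89% of the brown ones.

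Intergenic rows took 1.98 ± 0.611% of yellow and 3.17 ± 1.61% of brown counts (exact permutation p = 0.3, adjusted 0.5). Intronic antisense rows took 0.0953 ± 0.0252% and 0.109 ± 0.0273%, and intronic sense rows 0.0293 ± 0.0104% and 0.0442 ± 0.0189%. None of the 5 shares passed, and this permutation test could not have reached 0.05 with 3 against 3.

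Some exonic antisense rows held nearly the same counts as a gene row. Of 7925 such rows with at least 20 counts in every one of the 18 libraries, 288 (3.63%) had counts within a factor of 1.1 of a gene numbered on the same chromosome in all of them, and 0 did when set against genes of another chromosome. Such copies had a median log2 fold change of -0.03, and so did the genes they followed; the other exonic antisense rows tested had -0.11. Of rows with as many counts, 0 of 4474 intergenic, 0 of 153 intronic antisense and 0 of 73 intronic sense rows had such a copy.

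Effect sizes were alike on the 7 chromosomes. Median log2 fold changes ran from -0.05 to 0.00 for genes of chromosomes 1 to 7, from 0.57 to 0.63 for their intergenic rows and from -0.13 to -0.07 for exonic antisense rows. The 74 genes of contig 1, a set of IDs outside the 7 chromosomes, had a median of -0.01, with 2 (2.70%) above and 0 below, against 5.77% and 6.83% of all rows. On the other contigs the medians lay apart from those of the chromosomes, at 0.21 for 65 genes, 0.21 for 19 intergenic rows and 0.11 for 21 exonic antisense rows. Intergenic loci with more than 1 exon, 498 of them, had a median of 0.56, and the 9948 with 1 exon one of 0.58. All brown libraries were above all yellow ones for 55 (11.0%) of the former and 850 (8.54%) of the latter, against 5.77% of all rows. 

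The same stages in poly(A)-depleted libraries gave 0 calls too (0% of 48201 rows, lowest edgeR adjusted p = 0.531, with 4436 rows at an unadjusted p under 0.05). There the median log2 fold change of brown over yellow was 0.10 for genes, -0.17 for intergenic and 0.06 for exonic antisense rows. A test of the difference between the library kinds called 0% of 52101 rows (lowest adjusted p = 0.176), with 5201 at an unadjusted p under 0.05, so no row was shown to differ between them. The class medians of that difference moved with the scaling: with TMM and with library size only they were -0.44 and 0.11 for genes and 0.54 and 1.12 for intergenic rows. The named intergenic rows higher in brown had values near 0 in poly(A)-depleted libraries: 0.04 ± 0.20 for LINC.XLOC_004996, 0.03 ± 0.25 for LINC.XLOC_008131, 0.09 ± 0.30 for LINC.XLOC_010623 and 0.05 ± 0.23 for LINC.XLOC_017543. Their difference between library kinds had an adjusted p of 0.461 in the edgeR fit. FvH4_5g20520 had estimates above 0 in both kinds, at 2.83 ± 0.45 in poly(A)-depleted libraries (edgeR adjusted p = 0.531). exonAS.XLOC_027174 had 2.40 ± 0.76 there, but its brown 3, at 23.5 CPM of library totals, lay below the yellow libraries at 24.9 to 41.6 CPM. exonAS.XLOC_019259 had -2.08 ± 0.50 there. LINC.XLOC_028353 had the opposite sign, at 2.37 ± 1.11 against -2.24 ± 0.52, and a difference between library kinds of -4.73 ± 1.097 (edgeR adjusted p = 0.461). That poly(A)-depleted value rests mostly on brown 3, at 2.22 CPM of library totals. Its other libraries there were near the counting floor, at 0.314, 0 and 0.211 CPM in yellow 1, 2 and 3 and 0.294 and 0.178 CPM in brown 1 and 2. None of these rows passed the threshold in either kind of library.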

How the data were processed

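Libraries were stranded and paired-end and were run on a HiSeq, per the labels. The authors deposited raw counts, whole numbers per row and library with no normalization, per the file headers. STAR 2.5.4b, TopHat2 2.1.2 and Trim Galore 0.4.2 appear, without roles, in the submitters' processing notes. Not given in the sources used here are the counter, its strandedness, the build and the annotation. Positions come from the authors' assembled transcripts and count from 1. None of the 28588 gene IDs matched the 24946 rows of the reference table.

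Brown was compared with yellow in R 4.3.3 by edgeR 4.0.16 with TMM scaling, filterByExpr, a quasi-likelihood fit of 3 stage groups to 9 rRNA-depleted libraries, and Benjamini-Hochberg adjustment over the 49283 rows tested. Standard errors and 95% intervals were derived from the F statistic. Log2 CPM used a prior count of 2. The script was tested on simulated data with a smaller spread than that of the yellow and brown libraries, so its recovery at their spread was not tested. Alternatives were DESeq2 1.42.0, limma 3.58.1 voom with and without sample weights, other scalings and filters, other sets of libraries, a replicate block, and each library left out. Added after seeing the data were fits that leave out yellow 2 and brown 3, that drop exonic antisense rows, or that take the intergenic share as a covariate. The rows and lists were chosen with earlier results of these data known. Named genes averaged 10 CPM or more in their higher stage, and named lncRNAs 2 CPM or more. Per direction, they were 1 gene, 4 intergenic, 3 exonic antisense, 2 intronic antisense and 2 intronic sense rows with non-overlapping stages and the smallest p, and the gene, intergenic and exonic antisense row with the largest fold change. Nothing in the labels says that libraries are technical repeats, and each combined several plants.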

Additional observations from a re-analysis of the deposited data

How the results depend on the processing

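The counts of 0 genes and 0 lncRNAs called held with limma-voom, all 3 other scalings, at least 1 CPM in 3 libraries, the fit of only yellow and brown libraries, an adjusted p under 0.1, adjustment within genes or lncRNAs alone, the intergenic share as covariate and no exonic antisense rows. Leaving out each library in turn gave 0 to 1565 genes and 0 to 708 lncRNAs, with the calls coming from the fit without yellow library 2. Calls of genes and lncRNAs were 891 and 420 with DESeq2, 1017 and 418 with sample weights, 85 and 36 with no low-count filter, 262 and 127 in a fit to all 18 libraries, and 3489 and 1665 without yellow 2 and brown 3; the causes were not tested.

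The gene median of -0.03 was -0.13 with DESeq2 and with median-of-ratios factors and 0.15 with library size only. Leaving out single libraries gave -0.12 to 0.045 for genes and 0.12 to 0.96 for intergenic rows. The exonic antisense median was 0.046 with library size only. With the intergenic share as covariate the intergenic and intronic sense medians were -0.055 and -0.031, and without yellow 2 and brown 3 they were -0.13 and -0.15. The intronic sense median ran from 0.029 to 0.65 as single libraries were left out. The gene share of counts changed sign, to -0.87 percentage points, without the 10 most counted rows. The intronic antisense difference ran from -0.0022 to 0.0229 points as single libraries were left out.

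Of 636 values of the 28 named rows under the alternatives, 0 changed sign and 87 passed the threshold. The rows were chosen in these same data for non-overlapping stages or large fold changes, so their signs could hardly have changed. With the replicate number as a replicate block, 0 genes and 0 lncRNAs were called and the gene median stayed at -0.03. Deviations of same-numbered yellow and brown libraries correlated across rows at -0.20, 0.12 and 0.49, so the numbers were not taken as pairs. Yellow 1 did not correlate best with its own number, and yellow 2 did not either. Of the 4861 intergenic rows under 1 CPM, 0 had an interval within a 2-fold change; their median SD was 0.67 in green and 1.02 in brown, and the part of depth (47.2 to 75.2 M counts) was not tested.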
